A study of Arabidopsis thaliana with 24 samples.

Results

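Roots of an Arabidopsis thaliana line that carries an artificial microRNA against TOR, but whose inducer was withheld, were compared 6 h after a move from NPA to IAA. The comparison uses 6 of the 24 libraries of the series: 3 labelled UB10pro_amiR-TOR with IAA and 3 labelled UB10pro_amiR-TOR with NPA, chosen as the libraries of that genotype whose titles name no estradiol. NPA inhibits polar auxin transport, and IAA is the main auxin of plants. Seedlings 7 d old, per the labels' protocols, spent 24 h on 10 µM NPA and another 24 h on NPA with the solvent DMSO. They then either remained on those plates or were moved to 10 µM IAA with DMSO, a step the labels call induction of lateral roots. Each library pooled about 200 segments from the lower part of the root. The IAA plates are not said to hold NPA, so adding IAA, leaving NPA and the move itself cannot be told apart. The artificial microRNA is switched on by estradiol, which none of these 6 libraries received. The labels do not give the cells in which the UB10pro promoter is active or the number of independent lines, and they do not say whether replicates came from separate cultures, so p-values measure the spread between these samples, which may be technical. The wild type Col-0, handled the same way in 3 IAA and 3 NPA libraries, serves as the comparison.

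Auxin acts by joining receptors of the TIR1/AFB family to Aux/IAA proteins, which are then degraded. Aux/IAA proteins otherwise hold back the ARF transcription factors, so their removal lets ARFs switch on target genes, among them the Aux/IAA genes themselves and GH3 genes, whose products inactivate auxin. In roots, auxin leads pericycle cells next to the xylem to divide and found lateral roots, a step that needs transcription factors of the LBD family. TOR is a protein kinase that couples growth and ribosome production to nutrients and hormones.

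Gene counts, on the strand that held 95.38% to 96.13% of strand-assigned reads, lay between 8589833 (IAA replicate 2) and 27684045 (NPA replicate 2). Unmapped reads took 4.305% to 6.962% of these 6 libraries, against 47.57% in Col-0 IAA replicate 1 and 33.99% in Col-0 NPA replicate 1. Replicates correlated across genes with r between 0.985 and 0.996, and libraries of different treatment with r between 0.909 and 0.925. TOR (AT1G50030), the target of the uninduced construct, had 52.3, 64.1 and 54.3 CPM (library-size scaled counts) on NPA and 62.4, 57.6 and 70.1 CPM on IAA, and the groups overlapped. Means are given ± SD over 3 libraries, log2 fold changes ± SE. The change of TOR was 0.16 ± 0.152 (edgeR, adjusted p = 0.403). Its mean in Col-0 was 64.7 ± 13.4 CPM on NPA and 57.0 ± 9.44 CPM on IAA. Root identity was checked with CASP1, a Casparian strip gene of the endodermis, present at 41.4 to 101 CPM. LHCB1.1, a leaf light-harvesting gene, lay between 0.108 and 0.178 CPM on NPA. On IAA it was at 0 in replicate 2, and at 6.23 and 8.37 CPM in replicates 1 and 3. Reads of this gene can be split with near-identical copies, so its level is uncertain. LHCB1.1 is 1 of 7 listed leaf photosynthesis genes. Together these summed to 185 to 208 CPM on NPA and 95.6 to 131 CPM on IAA, so LHCB1.1 alone does not represent them.

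The move to IAA was followed by a broad change of expression. Of 21290 tested genes, 11239 (52.8%) were called at an adjusted p under 0.05. Higher on IAA were 6231 genes (29.3%), and lower were 5008 (23.5%). This balance depended on the fit: with the compared groups alone, 6047 genes were higher and 6098 lower, and the higher share of calls was 55.4% here and 49.4% at the lowest. On the log2 scale, 2634 called genes (12.4%) changed by 1 or more and 1868 (8.77%) by -1 or less. The median change over all tested genes was 0.021. These shares are the background against which the count of each list has to be read. The widest positive medians were those of auxin inactivation genes (4.13), lateral root transcription factors (3.38) and genes of cell separation and wall loosening (2.65). Aquaporins (-1.71), type-A response regulators of cytokinin signalling (-0.96) and xylem and secondary wall genes (-0.94) had the lowest.

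**Figure D1:**
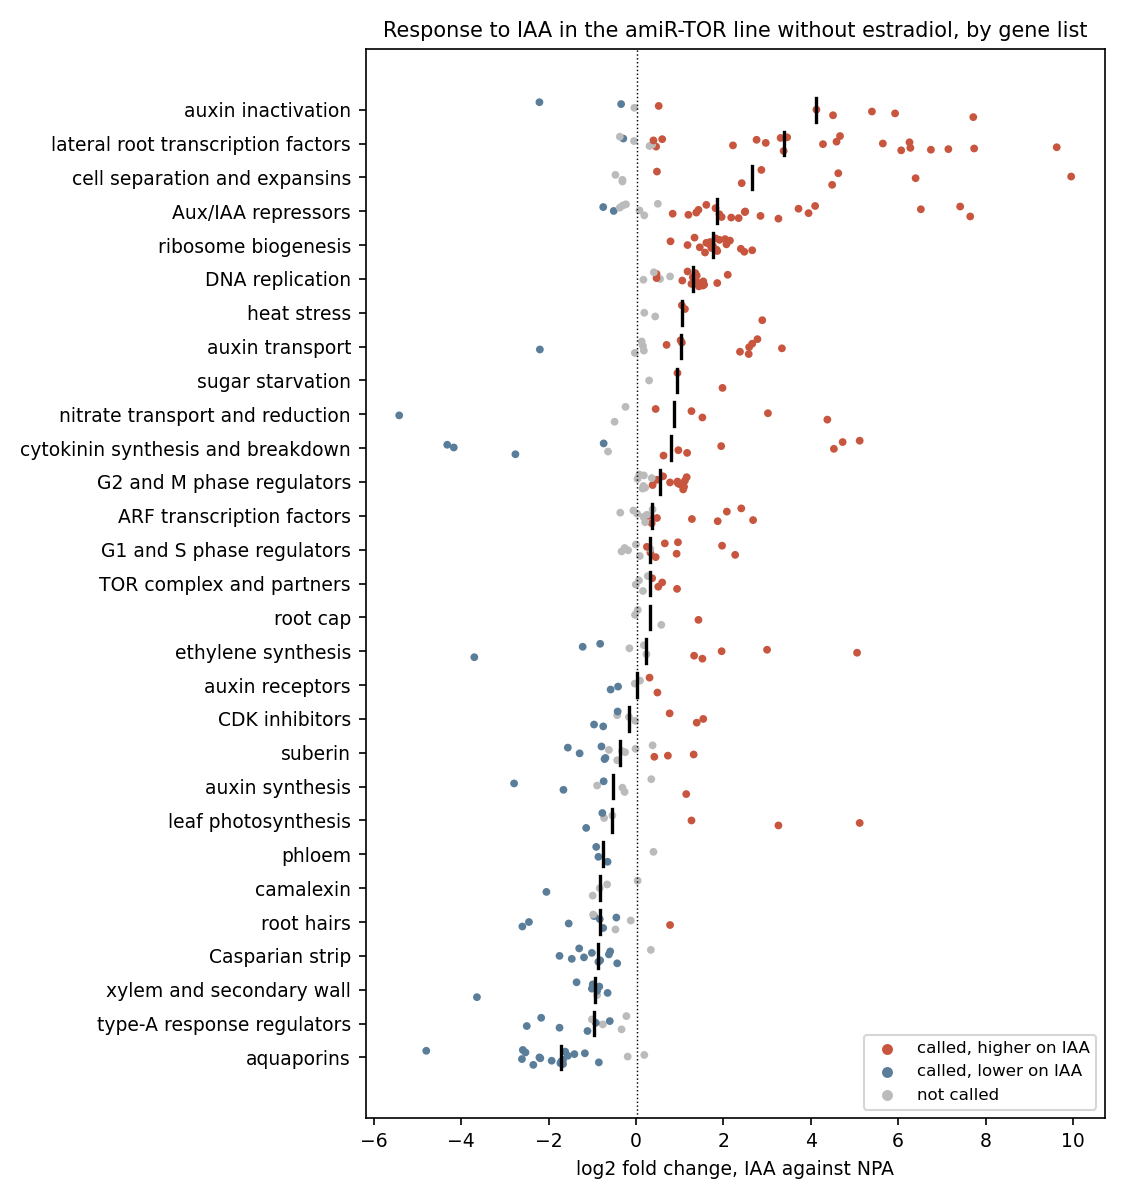
Log2 fold change of IAA against NPA in the uninduced amiR-TOR line for each tested member of 29 gene lists, with a black bar at each list's median; points are red for genes called higher, blue for genes called lower and grey for genes not called. List medians run from 4.13 for auxin inactivation to -1.71 for aquaporins, and the dotted line marks the median of all tested genes, 0.021.

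Transcription factors of lateral root founding were among the strongest responders. Of 25 listed factors, all tested, 20 rose, 1 fell and 4 were not called, against 29.3% higher and 23.5% lower among all genes. PUCHI (AT5G18560), an AP2-type factor that controls division patterns in the young primordium, had 0.192, 0.142 and 0.215 CPM on NPA and 145, 149 and 139 CPM on IAA. It was close to silent in each NPA library and well expressed in each IAA library, a log2 fold change of 9.63 ± 0.255 (edgeR, adjusted p = 3.34e-18). LBD33 (AT5G06080), a partner of LBD18, had 0.641, 0.178 and 0.161 CPM on NPA and 62.6, 62.2 and 65.8 CPM on IAA, with no overlap, a change of 7.74 ± 0.372 (edgeR, adjusted p = 5.59e-13). GATA23 (AT5G26930), a marker of pericycle cells chosen to found a lateral root, had 0.577, 0.853 and 0.914 CPM on NPA and 63.0, 53.4 and 69.9 CPM on IAA, again without overlap, a change of 6.28 ± 0.295 (edgeR, adjusted p = 2.04e-13). Because whole root segments were sequenced, more cells of a type and more RNA per cell cannot be told apart.

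The promoters of these 3 genes are shown because each holds 1 core of the auxin response element, the site bound by ARFs. They are the 3 listed factors of largest change whose 250 bases before the annotated start contain TGTCTC or TGTCGG on either strand. Sequences are from the RefSeq assembly TAIR10.1, written 5′ to 3′ along the gene's strand with the element in capitals. In PUCHI, on the reverse strand at chr5:6166041-6166290, TGTCTC lies 22 bases before the start.
PUCHI: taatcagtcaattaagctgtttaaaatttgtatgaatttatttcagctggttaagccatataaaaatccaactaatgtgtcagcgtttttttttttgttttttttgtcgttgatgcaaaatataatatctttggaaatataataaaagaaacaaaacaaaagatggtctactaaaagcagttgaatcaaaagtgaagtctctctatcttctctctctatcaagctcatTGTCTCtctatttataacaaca
In LBD33, on the reverse strand at chr5:1831468-1831717, TGTCTC lies 14 bases before the start.
LBD33: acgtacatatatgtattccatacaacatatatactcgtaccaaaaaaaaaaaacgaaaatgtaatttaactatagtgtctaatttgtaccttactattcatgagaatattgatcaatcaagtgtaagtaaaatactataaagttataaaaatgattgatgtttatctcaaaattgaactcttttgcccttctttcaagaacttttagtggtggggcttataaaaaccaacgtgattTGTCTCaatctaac
In GATA23, on the forward strand at chr5:9479174-9479423, TGTCGG lies on the opposite strand 122 bases before the start, so the capitals show its reverse complement.
GATA23: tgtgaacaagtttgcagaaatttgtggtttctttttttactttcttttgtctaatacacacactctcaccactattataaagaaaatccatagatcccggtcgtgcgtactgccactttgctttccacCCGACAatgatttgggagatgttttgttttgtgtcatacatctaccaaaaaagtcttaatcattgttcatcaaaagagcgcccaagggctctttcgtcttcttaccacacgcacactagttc
TGTCTC or TGTCGG was found in 14.8% of 21204 upstream windows of tested genes, in 8 of 25 lateral root factors (32.0%), in 13 of 28 Aux/IAA genes (46.4%) and in 1 of 19 aquaporin genes (5.26%). The share was 16.5% among called genes that rose by 1 or more on the log2 scale, and 13.3% among those that changed by -1 or less. A match is a description of letters and not evidence of binding.

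The LBD genes rose as a group. LBD16, which starts asymmetric division of founder cells, had 10.8, 7.93 and 9.90 CPM on NPA and 99.5, 109.8 and 86.4 CPM on IAA. LBD29 had 2.63, 1.71 and 1.77 CPM on NPA and 318, 237 and 291 CPM on IAA. For both genes each IAA library lay above each NPA library, with log2 fold changes of 3.38 ± 0.169 and 7.15 ± 0.235 (edgeR, adjusted p = 1.60e-13 and 1.83e-16). LBD17 changed by 6.07 ± 0.229, LBD18 by 6.75 ± 0.187 and LBD19, which is outside the list and was named as one of the 10 largest rises, by 8.18 ± 0.386. Of the PLETHORA genes, which maintain stem cell and primordium identity, PLT3, PLT5 and PLT7 rose by 2.22 to 5.65. PLT1 rose by 0.46 ± 0.138, a call lost without IAA replicate 2 (0.34, adjusted p = 0.0550, edgeR). The other tip-expressed PLETHORA genes were not called, with 7.88 ± 0.507 CPM on NPA and 9.88 ± 2.14 CPM on IAA for PLT2, and 9.04 ± 0.730 and 11.8 ± 2.14 CPM for BBM. WOX11, a founder gene of roots arising outside the usual sequence, rose by 4.59 ± 0.309, and WOX5, expressed in the quiescent centre, rose from 1.97 ± 0.0713 to 15.3 ± 2.96 CPM. WOX7 was counted once over the 3 NPA libraries and reached 1.68 ± 0.440 CPM on IAA, a ratio of 97.2 with a 95% counting interval from 16.9 to 3890.1.

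MYB124, known for limiting divisions in stomatal precursors and for a role in auxin-dependent primordium formation, had 8.52, 8.18 and 9.90 CPM on NPA and 229, 218 and 229 CPM on IAA. It did not overlap between groups and rose by 4.67 ± 0.149 (edgeR, adjusted p = 6.11e-17). The cytokinin response factors CRF2 and CRF3 rose by 3.31 ± 0.128 and 3.46 ± 0.161, and LRP1, named for its expression in primordia, by 2.76 ± 0.179. SHR, which specifies the endodermis, was not called (16.3 ± 2.43 CPM on NPA, 15.9 ± 2.70 CPM on IAA), and neither was NAC1 (73.2 ± 2.29 and 56.9 ± 6.40 CPM; -0.37), which did pass as lower in 5 alternatives (-0.41 to -0.46). LHW, which acts in vascular tissue, fell by 0.29 on the log2 scale, while TMO5, its partner, rose by 0.60 ± 0.103. LHW lost its call in 4 of 6 fits with 1 library removed, and SCR (0.40 ± 0.163), the partner of SHR, did so in all 6. The adjusted p-values without 1 library ran from 0.0627 to 0.138 for LHW where lost and from 0.0695 to 0.109 for SCR (edgeR).

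**Figure D2:**
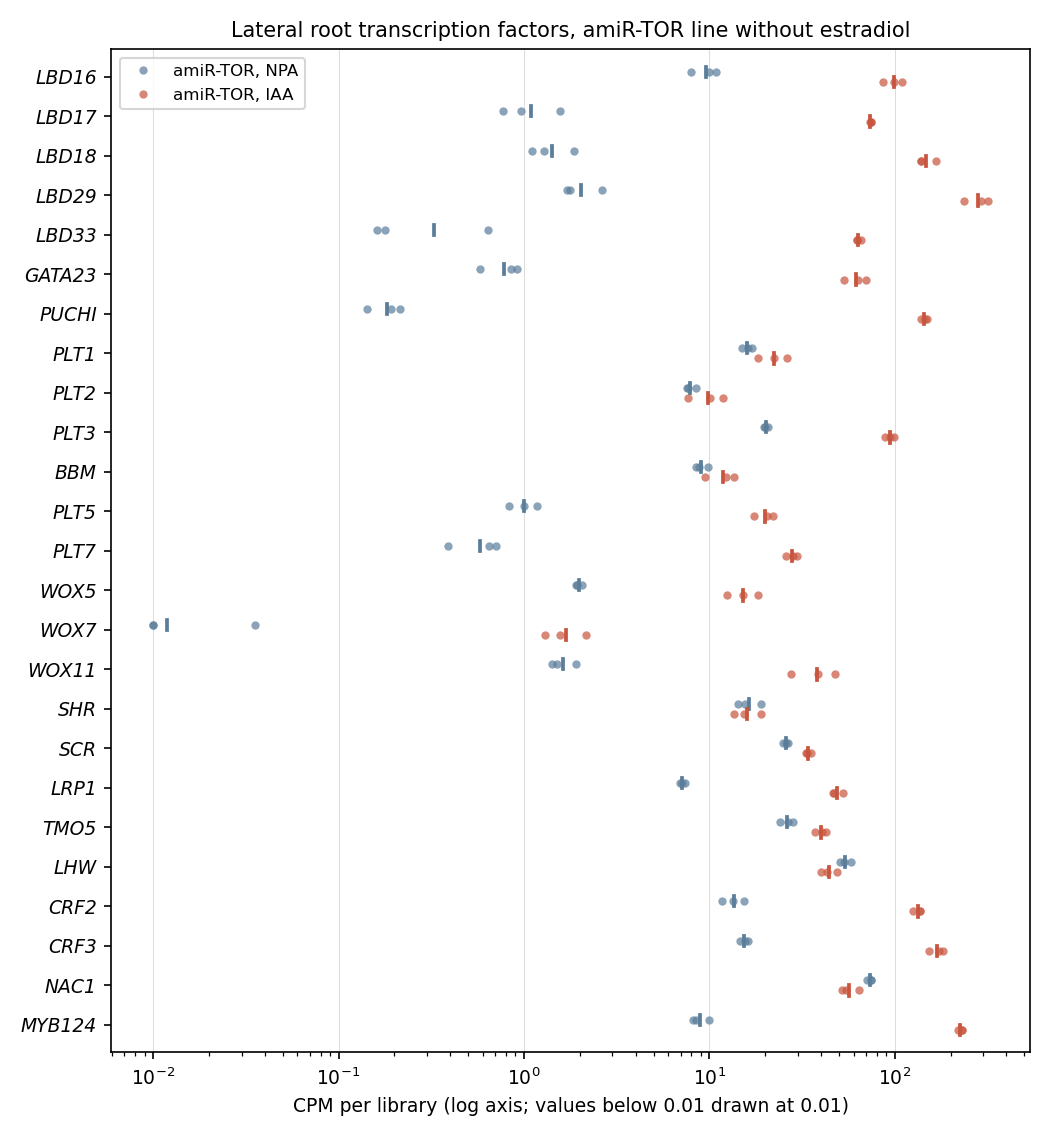
CPM of 25 lateral root transcription factors in the 3 NPA (blue) and 3 IAA (red) libraries of the uninduced amiR-TOR line on a log axis, with bars at the group means and values below 0.01 drawn at 0.01. PUCHI moved from 0.183 to 144 CPM and LBD29 from 2.04 to 282 CPM, while SHR was at 16.3 and 15.9 CPM.

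Most genes that hold back or remove auxin rose. Of the 29 Aux/IAA genes listed, 28 were tested, of which 20 rose, 2 fell and 6 were not called, with a median of 1.87. IAA19 (AT3G15540) had 7.43, 5.44 and 6.45 CPM on NPA and 615, 533 and 607 CPM on IAA, a wide separation with a log2 fold change of 6.52 ± 0.165 (edgeR, adjusted p = 3.23e-18). IAA5 and IAA29 were below 1 CPM in each NPA library and averaged 32.9 ± 11.2 and 91.6 ± 17.7 CPM on IAA. IAA9 went from 413 ± 20.3 to 1549 ± 255 CPM. IAA14, whose stabilised form blocks lateral root initiation, rose by 2.5 ± 0.128. IAA28, another Aux/IAA repressor of lateral root formation, fell, with 120.1, 113 and 111 CPM on NPA and 70.0, 64.4 and 70.2 CPM on IAA (-0.75 ± 0.106, edgeR, adjusted p = 2.58e-06). IAA16 fell by 0.51 on the log2 scale. IAA17 (93.8 ± 8.47 and 98.9 ± 12.5 CPM) and IAA7 (60.0 ± 6.93 and 68.4 ± 2.52 CPM) were not called, nor were IAA27, IAA31, IAA33 and IAA34. IAA15, with 3 counts over the 6 libraries, was not tested.

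Of 10 inactivation genes, 9 were tested, of which 6 rose, 2 fell and 1 was not called. GH3.1, GH3.2, GH3.3, GH3.5 and GH3.6 encode enzymes that join IAA to amino acids. GH3.3 (AT2G23170) had 54.9, 49.3 and 35.3 CPM on NPA and 2754, 3241 and 2498 CPM on IAA. GH3.5 had 40.8, 35.7 and 41.4 CPM on NPA and 1732, 1635 and 1612 CPM on IAA. Neither gene overlapped between groups, and their log2 fold changes were 5.93 ± 0.463 and 5.40 ± 0.195 (edgeR, adjusted p = 3.31e-09 and 5.69e-16). GH3.1 rose by 7.72 ± 0.205, GH3.2 by 4.51 ± 0.368 and GH3.6 by 4.13 ± 0.158. GH3.17, expressed more evenly in roots, rose by 0.52 ± 0.110. GH3.4 had no count on NPA and 8 counts on IAA and was too low to test, at least 3.41-fold higher against a floor of 3 counts over the NPA group. DAO2, one of the dioxygenases that oxidise IAA, fell from 229 ± 6.75 to 49.6 ± 3.39 CPM. DAO1, the main oxidase, fell by 0.34 on the log2 scale, which did not pass in 5 of 6 fits with 1 library removed (adjusted p from 0.0805 to 0.144 in those 5, edgeR).

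**Figure D3:**
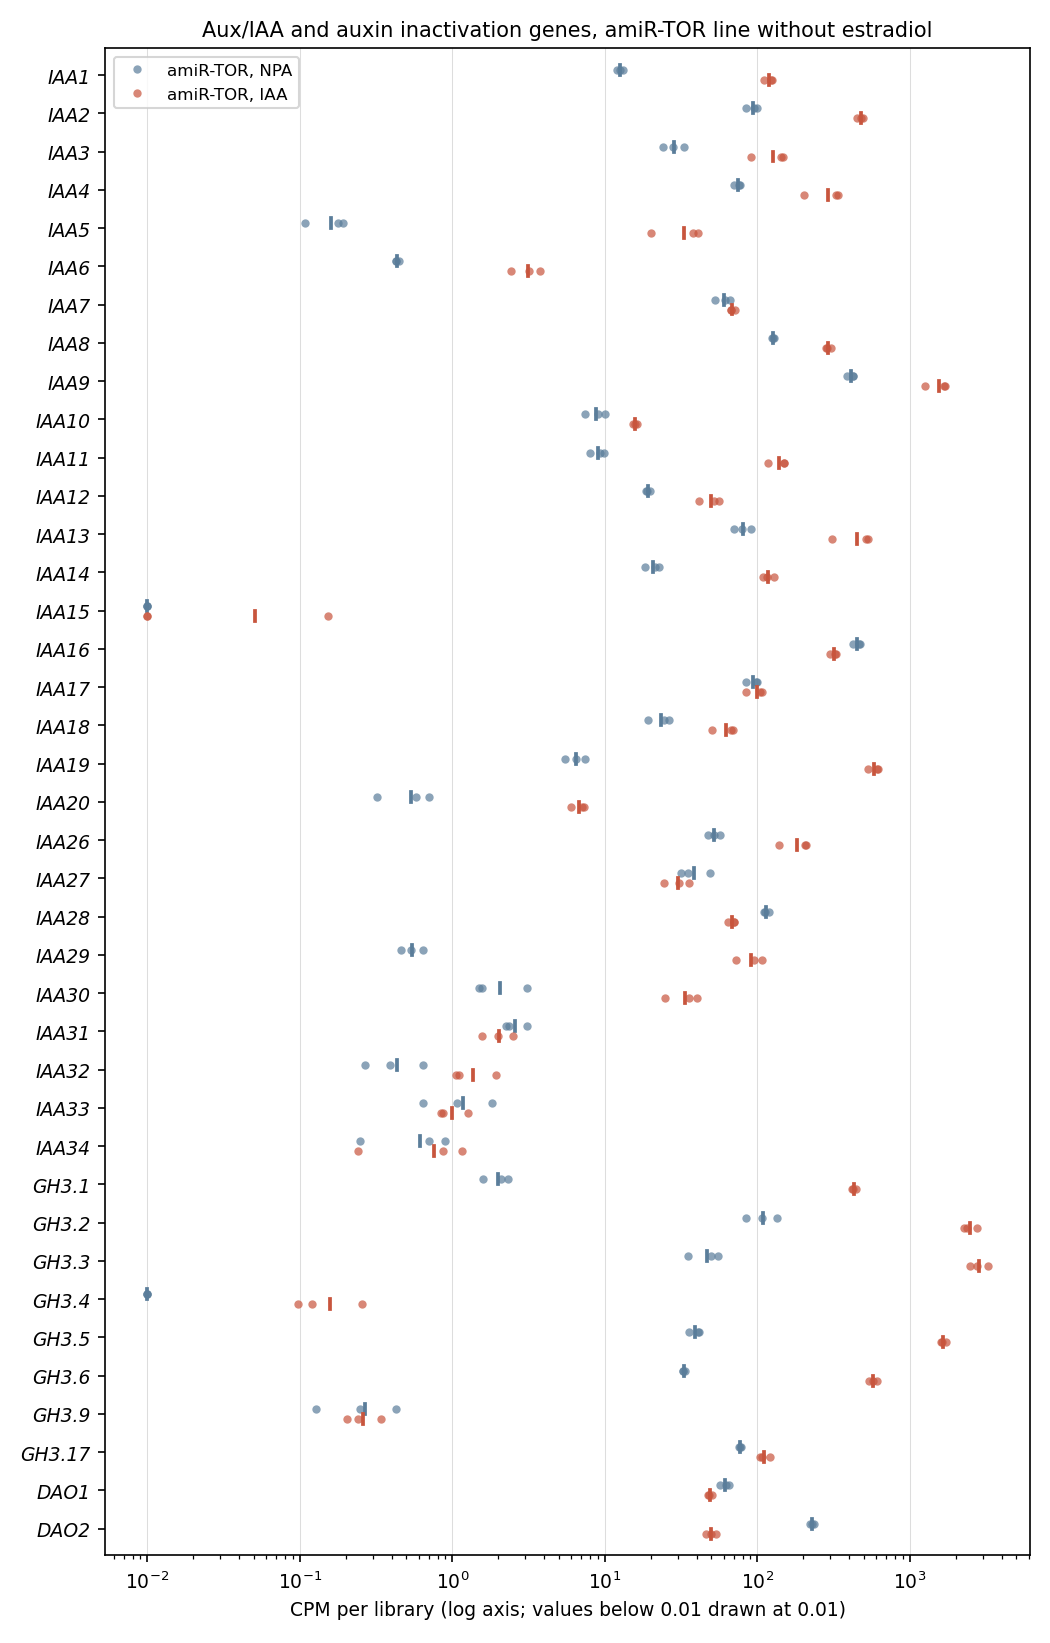
CPM of 29 Aux/IAA and 10 auxin inactivation genes in the 3 NPA (blue) and 3 IAA (red) libraries on a log axis, with bars at the group means and values below 0.01 drawn at 0.01. GH3.3 moved from 46.5 to 2831 CPM and IAA19 from 6.44 to 585 CPM, while DAO2 dropped from 229 to 49.6 CPM.

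Receptor genes moved in both directions, with a median of 0.032. Among the 6 receptors, TIR1 rose by 0.49 ± 0.113 and AFB5 by 0.31 ± 0.0977, AFB1 (-0.58) and AFB2 (-0.41) fell, and 2 were not called, AFB3 and AFB4. The AFB5 call was lost without IAA replicate 3 (0.27, adjusted p = 0.0512, edgeR). The 15 ARF genes had a median of 0.36, with 8 higher and 7 not called. Their called share of 53.3% was near the 52.8% of all tested genes, where 29.3% were higher and 23.5% lower. ARF19 (AT1G19220), which drives lateral root initiation with ARF7, had 27.5, 26.7 and 24.8 CPM on NPA and 127, 151 and 143 CPM on IAA, without overlap, a change of 2.41 ± 0.157 (edgeR, adjusted p = 1.37e-11). ARF7 itself had 61.8, 59.4 and 61.4 CPM on NPA and 63.8, 75.2 and 66.8 CPM on IAA and was not called (0.17 ± 0.148, edgeR, adjusted p = 0.351). ARF4, ARF16, ARF3 and ARF5 rose by 2.68, 2.08, 1.87 and 1.28. The ARF count was 6 at the lowest with 1 library removed. ARF8 and ARF6 lost their calls there, ARF8 in all 6 such fits and ARF6 without IAA replicate 2 (0.36) or NPA replicate 1 (0.45).

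Synthesis genes did not move one way. Of 11 listed, 8 were tested, with 1 higher and 3 lower. TAA1, which makes the indole-3-pyruvate intermediate, rose from 19.0 ± 0.504 to 41.9 ± 2.88 CPM. YUC6, of the flavin monooxygenases that complete IAA synthesis, had 19.9, 19.1 and 19.4 CPM on NPA and 2.42, 2.77 and 3.25 CPM on IAA. The groups were far apart, with a log2 fold change of -2.79 (edgeR, adjusted p = 4.30e-09). YUC8 fell by 0.74 and YUC2, under 1 CPM throughout, fell by 1.66, a call lost without IAA replicate 1 (-1.10), IAA replicate 2 (-1.55) or NPA replicate 2 (-1.13).

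Of 16 transport genes, 14 were tested, with 9 higher and 1 lower and a median of 1.04. PIN7 (AT1G23080), an efflux carrier, had 40, 36.5 and 41.1 CPM on NPA and 407, 402 and 382 CPM on IAA. LAX3, an influx carrier that acts in cells overlying the primordium, had 69.6, 67.4 and 70.5 CPM on NPA and 451, 397 and 464 CPM on IAA. Both were several times higher in each IAA library, by 3.34 ± 0.103 and 2.66 ± 0.167 on the log2 scale (edgeR, adjusted p = 3.76e-17 and 7.42e-12). PIN3 rose by 2.38 ± 0.119, AUX1 by 2.59 ± 0.143 and PID, a kinase that sets PIN polarity, by 2.78 ± 0.105. PIN5, which sits on the endoplasmic reticulum, fell from 16.7 ± 1.29 to 3.67 ± 0.205 CPM. PIN2 (101 ± 13.1 and 99.4 ± 7.36 CPM) and PIN4 (28.0 ± 0.564 and 31.8 ± 3.19 CPM) were not called.

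A primordium must pass through overlying tissue, where cells separate and walls loosen. Of 10 such genes, 7 rose and 3 were not called, with a median of 2.65. PGAZAT (AT2G41850), a polygalacturonase also known as ADPG2 that digests pectin between cells, had 0.128, 0.0355 and 0.161 CPM on NPA and 104, 83.5 and 116 CPM on IAA. It was nearly silent in all 3 NPA libraries, and its change was 9.96 ± 0.429 (edgeR, adjusted p = 1.44e-13). PGLR, another polygalacturonase, rose by 6.40 ± 0.573. The peptide gene IDA went from 0.258 ± 0.0102 to 5.85 ± 1.2 CPM and its receptor gene HAE from 1.75 ± 0.296 to 9.71 ± 1.91 CPM. The second receptor gene of that pathway, HSL2, was not called (6.69 ± 0.0309 and 5.41 ± 0.692 CPM), and nor were the polygalacturonase QRT2 and XTH23. Among wall-loosening expansins, EXPA1 and EXPA17 rose by 4.63 ± 0.252 and 2.87 ± 0.217. EXPA14 rose by 0.48 ± 0.154, a call lost without IAA replicate 2 (0.33) or NPA replicate 3 (0.41).

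Genes of ribosome assembly rose without exception in the list. All 21 listed genes were tested and called higher, against 29.3% of all genes, with log2 fold changes from 0.79 (MTR4) to 2.66 (NUC-L2) and a median of 1.76. Summed over the list, the NPA libraries held 1425 to 1693 CPM and the IAA libraries 5038 to 5761 CPM. NUC-L1 (AT1G48920), a nucleolin needed for ribosomal RNA transcription and processing, had 312, 289 and 349 CPM on NPA and 1235, 998 and 1218 CPM on IAA. FIB2, a fibrillarin that guides methylation of ribosomal RNA, had 87.4, 81.1 and 93.3 CPM on NPA and 509, 466 and 489 CPM on IAA. Each IAA library lay above each NPA library for both genes, with changes of 1.86 ± 0.136 and 2.48 ± 0.161 (edgeR, adjusted p = 9.37e-11 and 1.17e-11). FIB1 and FIB2 are close copies, as are NOP5-1 and NOP5-2, and reads shared between copies were not counted. The PES, BOP1 and WDR12 genes, whose yeast counterparts form 1 complex of large subunit assembly, rose by 1.67, 1.61 and 1.69. The site TGGGCC, found upstream of many growth genes, occurred on either strand in 12 of the 21 windows (57.1%) against 16.0% of all, 17.5% for genes that rose by 1 or more on the log2 scale and 4.93% for those that changed by -1 or less.

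Some TOR complex genes rose. Of 9 listed, 8 were tested, of which 4 rose and 4, TOR among them, were not called, with a median of 0.32. Over all tested genes 52.8% were called and 29.3% were called higher, so the number called in this list did not stand out. In Col-0, 4 of the 8 were called as well, all higher, with a median of 0.29. None of the 8 was called for a difference between the lines. RAPTOR1A, a substrate-binding subunit, rose from 10.2 ± 1.02 to 19.7 ± 3.02 CPM, RAPTOR1B from 67.4 ± 3.43 to 96.3 ± 9.21 CPM, the kinase gene S6K1 from 62.3 ± 3.87 to 94.5 ± 1.68 CPM, and TAP46 by 0.37 ± 0.0853. LST8-1 was not called (59.1 ± 1.69 and 58.9 ± 0.952 CPM), and LST8-2 had no count in the 6 libraries.

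Most DNA replication genes rose. Of 19, 15 rose and 4 were not called, with a median of 1.30. The MCM2 to MCM7 genes, which encode the replicative helicase, rose by 1.27 to 1.86. RNR1, for the large subunit of ribonucleotide reductase, had 30.3, 28.7 and 32.5 CPM on NPA and 124, 131 and 136 CPM on IAA. PCNA1, for the sliding clamp, had 16.7, 16.6 and 18.1 CPM on NPA and 49.5, 52.2 and 48.4 CPM on IAA. The groups were clearly separate for both genes, with changes of 2.1 ± 0.122 and 1.54 ± 0.153 (edgeR, adjusted p = 1.95e-12 and 1.28e-08). CDC6, CDC6B, ORC1A and CDC45 were not called. The E2F-type site TTCCCGC occurred on either strand upstream of 10 of the 19 genes (52.6%) against 1.21% of all windows. TGGGCC, given above for ribosome assembly genes, occurred upstream of 12 of these 19 genes (63.2%) against 16.0% of all windows.

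Among 14 regulators of G1 and S phase, 8 rose and 6 were not called, with a median of 0.33. The share called was 57.1%, near the 52.8% of all tested genes, where 29.3% were higher and 23.5% lower. The cyclin gene CYCD3;1 rose by 2.27 ± 0.179 and E2FA, an activator of S phase genes, by 1.97 ± 0.143. RBR1, the retinoblastoma homologue that binds E2F factors, rose by 0.66 ± 0.117. The count of 8 dropped to 5 without NPA replicate 1 and to 5 when reads were counted without regard to strand. E2FB (8.83 ± 0.291 and 8.89 ± 0.862 CPM) was not called. The 18 regulators of G2 and M phase had a median of 0.55, with 11 higher and 7 not called, a called share of 61.1%. CDKB2;1 (AT1G76540), a mitotic kinase, had 17.3, 19.1 and 18.7 CPM on NPA and 40.7, 37.2 and 44.8 CPM on IAA, without overlap (1.16 ± 0.125, edgeR, adjusted p = 5.02e-08). CYCB1;1, a cyclin gene widely used to mark dividing cells, had 5.77, 5.90 and 5.65 CPM on NPA and 5.94, 7.10 and 6.64 CPM on IAA. Its IAA values lay just above its NPA values, and it was not called (0.17 ± 0.257, edgeR, adjusted p = 0.592). KN and MAP65-3, genes of cytokinesis, were not called either. Of 9 CDK inhibitors, 3 rose, 3 fell and 3 were not called, with a median of -0.16. They were called in 66.7%, against 52.8% of all tested genes. KRP2, which restrains lateral root initiation, fell from 16.0 ± 1.31 to 8.16 ± 0.549 CPM, and KRP1 fell as well. The KRP1 call was lost without IAA replicate 2 (-0.46), NPA replicate 1 (-0.68) or NPA replicate 2 (-0.77). KRP3, KRP5 and SIM rose by 1.39, 1.54 and 0.77.

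Cell cycle genes responded less here than in the wild type. The difference between the lines was tested as amiR-TOR change minus Col-0 change, and 634 of 21290 genes (2.98%) were called for it, 301 more positive (1.41%) and 333 more negative (1.56%) in amiR-TOR. The amiR-TOR change was the smaller for 572 of the 634. Signs matched for 505 of the 634 and were opposite for 129. These counts were made among called genes only, so they give no share over all tested genes. Of the 18 G2 and M phase genes, 12 were called for a smaller rise in amiR-TOR, and the estimate was negative for each of the 18, with a median difference of -0.98. Over all tested genes 44.7% of estimates were negative, with a median of 0.048. The list medians of the change were 0.55 in amiR-TOR and 1.51 in Col-0. CYCB1;4 (AT2G26760), a B-type cyclin gene, had 9.61, 9.31 and 8.87 CPM on NPA and 15.6, 19.5 and 19.4 CPM on IAA in amiR-TOR. In Col-0 it had 6.33, 5.34 and 7.09 CPM on NPA and 38.6, 29.8 and 30.4 CPM on IAA. The amiR-TOR libraries were thus above the Col-0 libraries on NPA and below them on IAA, and the changes were 0.96 ± 0.139 and 2.4 ± 0.142, a difference of -1.44 ± 0.196 (edgeR, adjusted p = 0.00106). CDKB2;1 had 14.1, 13 and 11.4 CPM on NPA and 65.4, 45.4 and 61.0 CPM on IAA in Col-0, and its difference was -1.0 ± 0.175 (edgeR, adjusted p = 0.00522). KN and MAP65-3, not called in amiR-TOR, rose by 1.13 and 1.28 in Col-0.

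Of the 19 replication genes, 11 were called for a smaller rise, with a median difference of -0.70 and a negative estimate for each of the 19. MCM6 differed by -1.11 ± 0.168 and PCNA1 by -1.03 ± 0.215 (edgeR, adjusted p = 0.00263 and 0.0158). Ribosome biogenesis genes had a median difference of -0.38, with FIB2, NOP56, NOP5-2 and CBF5 called. Of the G1 and S phase genes, CYCD3;2 and CYCA3;2 were called, with the calls lost in 8 and 14 of the alternatives. With 1 library left out, this list had between 0 and 2 calls. CYCA3;2 was not a smaller rise, since it passed as lower in amiR-TOR in 6 alternatives (-0.29 to -0.33). The number of called differences depended on most single libraries, though not on amiR-TOR IAA replicate 2. Against 634 in all, it was 224, 1109 and 192 without Col-0 IAA replicates 1, 2 and 3, and 1400, 268 and 153 without Col-0 NPA replicates 1, 2 and 3. It was 193, 661 and 168 without amiR-TOR IAA replicates 1, 2 and 3, and 252, 279 and 201 without amiR-TOR NPA replicates 1, 2 and 3. The 12 mitotic calls went to between 5 and 14 in these fits, the 11 replication calls to between 3 and 12 and the 4 ribosome calls to between 0 and 9. Without both Col-0 libraries of high unmapped share, the counts were 12, 10 and 8. CYCA2;4, CYCB1;2, CYCB1;3, CYCB1;4, CDKB2;1, MCM6 and PCNA1 were called for the difference under each alternative run.

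**Figure D4:**
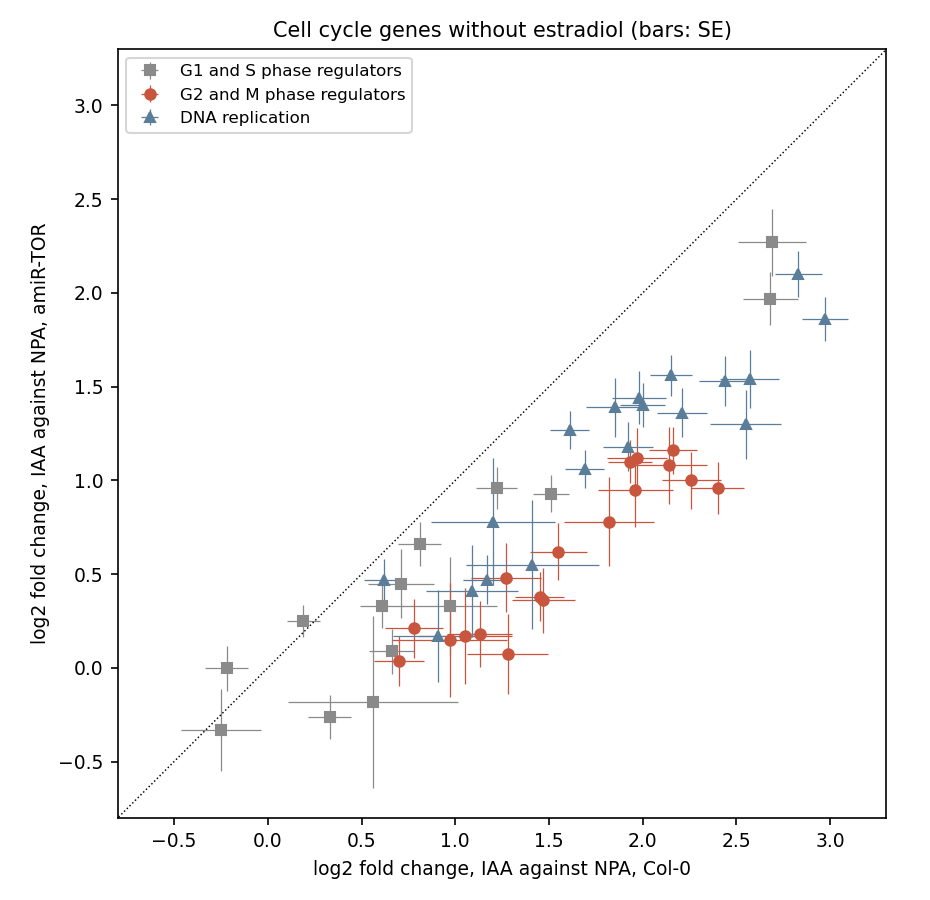
Log2 fold change of IAA against NPA in Col-0 (x axis) and in the uninduced amiR-TOR line (y axis) for G1 and S phase genes (grey squares), G2 and M phase genes (red circles) and DNA replication genes (blue triangles), with SE bars and a dotted line of equal change. All 18 mitotic and all 19 replication genes lie below the line, with median differences of -0.98 and -0.70.

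The log2 fold changes of the lines had a Pearson correlation of 0.883 over the tested genes, a description since genes are not independent. Of 25 lateral root factors, 3 were called for a smaller rise, LBD18 (-1.19 ± 0.307), CRF3 (-0.78 ± 0.213) and MYB124 (-0.72 ± 0.188), each with adjusted p between 0.0372 and 0.0460 (edgeR) and each call lost in 10 to 12 of the alternatives. For LBD18 the IAA levels were similar, 148 ± 16.5 CPM in amiR-TOR and 145 ± 20.5 CPM in Col-0, and the NPA levels were 1.42 ± 0.394 and 0.599 ± 0.148 CPM. IAA19 (-1.12 ± 0.202) and PIN7 (-0.71 ± 0.134) also rose less in amiR-TOR (edgeR, adjusted p = 0.00555 and 0.00805). GH3.17 rose in amiR-TOR and fell by 0.25 in Col-0. Its NPA level was 76.7 ± 1.38 CPM in amiR-TOR and 114 ± 8.79 CPM in Col-0.

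By the rule of largest difference among genes averaging at least 5 CPM, the 5 most negative differences between lines were those of CYP706A2, a cytochrome P450 gene (-3.78 ± 0.793), AT5G39670, for a calcium-binding protein (-3.04 ± 0.601), AT4G37290 (-2.73 ± 0.650), TCH3, for a touch-inducible calmodulin-like protein (-2.68 ± 0.397), and AT1G13480 (-2.43 ± 0.485). TCH3 had 85.4, 117 and 76.1 CPM on NPA and 245, 313 and 229 CPM on IAA. In Col-0 its means were 10.4 CPM on NPA and 188 CPM on IAA. As a ratio, the gap between lines was wider on NPA than on IAA, with amiR-TOR higher, and this held for the other 4, whose NPA means were 7.70 against 0.374 CPM for CYP706A2, 36.7 against 2.12 CPM for AT5G39670, 20.4 against 1.24 CPM for AT4G37290 and 23.2 against 1.99 CPM for AT1G13480. The 5 most positive were the neighbouring lipid-transfer genes AT5G46900 (3.43 ± 0.837) and AT5G46890 (2.62 ± 0.651), the glycine-rich protein gene AT4G30460 (2.53 ± 0.674), the wall enzyme gene XTH13 (2.47 ± 0.577) and AT4G37220 (2.30 ± 0.529). The first 4 fell less in amiR-TOR than in Col-0, and AT4G37220 was not called in amiR-TOR (4.49 ± 1.67 CPM on NPA, 2.99 ± 0.311 CPM on IAA). In Col-0 on IAA the first 4 averaged 0.174, 0.401, 0.925 and 0.584 CPM, so their differences rest on low counts. In amiR-TOR on IAA, AT5G46900 had 5.85, 0.601 and 2.59 CPM. AT5G46900 and AT5G46890 may share reads, so their values are uncertain. All 5 lost the call for the difference in some alternatives, AT5G46890 in 14, AT5G46900 and AT4G30460 in 12, and XTH13 and AT4G37220 in 9, while keeping their sign. Among the negative ones, AT4G37290 lost it in 9 and CYP706A2 in 2. In amiR-TOR, CYP706A2 had 9.38, 34.9 and 9.84 CPM on IAA, with replicate 2 the highest, and overlapped its NPA values of 5.70 to 10.3 CPM. AT5G39670 overlapped as well and was not called in amiR-TOR (-0.58 ± 0.376, edgeR, adjusted p = 0.207).

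Genes that answer to cytokinin were mostly lower on IAA. Type-A response regulators are rapidly induced by cytokinin and dampen its signal. Of 10, 6 fell and 4 were not called, with a median of -0.96. ARR6 (AT5G62920) had 73.0, 67.7 and 67.3 CPM on NPA and 13.7, 11.1 and 11.6 CPM on IAA. ARR5 had 78.1, 82.4 and 80.8 CPM on NPA and 27.8, 19.6 and 23.8 CPM on IAA. The 3 IAA libraries were lower for both, with log2 fold changes of -2.5 and -1.75 (edgeR, adjusted p = 2.96e-12 and 3.68e-10), and both fell less than in Col-0, by differences of 1.16 ± 0.206 and 0.93 ± 0.193. Of the genes for cytokinin synthesis (IPT) and breakdown (CKX), 12 of 13 were tested, with 7 higher and 4 lower. CKX1, CKX6 and CKX7, for oxidases that degrade cytokinin, rose by 4.53, 4.73 and 5.12. CKX6 had 3.84, 1.88 and 4.95 CPM on NPA and 92.8, 96.2 and 85.2 CPM on IAA. CKX4 went the other way, from 20.2, 27.1 and 23.6 CPM to 0.870, 1.44 and 1.37 CPM, a log2 fold change of -4.32. IPT3, a main root synthesis gene, fell by 2.76 and IPT5 rose by 1.17 ± 0.171.

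Ethylene synthesis genes split. Of 12, 11 were tested, with 5 higher and 3 lower. ACS8 and ACS11, for the enzyme that makes the ethylene precursor, rose by 5.06 ± 0.434 and 3.00 ± 0.331, and ACS5 fell by 3.70. ACS6 rose from 37.0 ± 1.68 to 93.5 ± 24.8 CPM, less than in Col-0 (difference -1.18 ± 0.209, edgeR, adjusted p = 0.00522).

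Genes of differentiated root tissue were mostly lower on IAA. Of 11 genes for the Casparian strip, the lignin barrier of the endodermis, 10 fell and CIF1 was not called, with a median of -0.86. CIF2, for a peptide that controls sealing of the barrier, had 191, 183 and 217 CPM on NPA and 86.5, 81.0 and 73.5 CPM on IAA. It was lower in each IAA library, with a log2 fold change of -1.30 (edgeR, adjusted p = 1.39e-07). MYB36, which switches these genes on, fell by 0.43, a call lost without IAA replicate 2 (-0.33) or NPA replicate 2 (-0.34). ESB1 (-0.62 ± 0.149) was not called when reads were counted without regard to strand, where its change was -0.61 (edgeR, adjusted p = 0.483).

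Of 14 suberin genes, 3 were higher and 5 lower, with a median of -0.38. Their called share of 57.1% was near the 52.8% of all tested genes. The lower count was 9 when reads were counted without regard to strand and 8 with the replicate block in the compared groups. FAR4, a fatty acid reductase gene, rose from 117 ± 17.5 to 293 ± 31.7 CPM, while FAR5 fell from 141 ± 17 to 57.8 ± 15.2 CPM. Of 8 xylem and secondary wall genes 7 fell and 1 was not called, with a median of -0.94. CESA4, CESA7 and CESA8, the cellulose synthases of secondary walls, fell (-1.01, -0.84 and -0.99), as did MYB46, which activates them (-1.36). VND6, a switch for vessel identity, fell from 3.18 ± 0.805 to 0.269 ± 0.0849 CPM. Of 4 phloem genes, APL, SUC2 and SEOR1 fell (-0.65, -0.86 and -0.91). Among 4 root cap genes SMB rose, from 9.67 ± 1.30 to 26.0 ± 0.993 CPM, and 3 were not called.

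Of 11 root hair genes, 7 fell and 1 rose, with a median of -0.83. The lower count was 5 to 6 with 1 library removed and 6 to 9 under the other alternatives. COBL9, needed for hair growth, had 19.1, 19.4 and 18.4 CPM on NPA and 4.20, 2.04 and 3.65 CPM on IAA, with no overlap and a log2 fold change of -2.45 (edgeR, adjusted p = 1.25e-07). RSL4, which sets hair length, fell by 1.54, and RHD6, which acts before it, fell by 0.75. RSL2 rose by 0.78 ± 0.286, a call lost without IAA replicate 3 (0.54), NPA replicate 1 (0.58) or NPA replicate 2 (0.81, adjusted p = 0.0520, edgeR), and when reads were counted without regard to strand. The hair expansin gene EXPA7 had 30.2, 34.5 and 29.7 CPM on NPA and 33.4, 16.5 and 35.7 CPM on IAA. Its groups overlapped, it was not called, and IAA replicate 2 was the lowest. In Col-0 EXPA7 fell by 1.92, and the difference between lines was 1.8 ± 0.473 (edgeR, adjusted p = 0.0451), a call lost in 13 of the alternatives.

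Aquaporins, the water channels of the plasma membrane (PIP) and the vacuole membrane (TIP), fell almost throughout. Of 19 genes, 17 fell, 16 of them to a log2 fold change of at most -1, against 23.5% and 8.77% of all genes, and 2 were not called. Summed over the list, the NPA libraries held 6206 to 7222 CPM and the IAA libraries 1773 to 2644 CPM. PIP2;1, a main water channel of roots that acts in lateral root emergence, had 1138, 1172 and 1055 CPM on NPA and 361, 237 and 286 CPM on IAA. TIP2;3 (AT5G47450) had 98.4, 123 and 71.5 CPM on NPA and 4.01, 2.53 and 3.55 CPM on IAA. Each IAA library was lower for both genes, with log2 fold changes of -1.93 and -4.80 (edgeR, adjusted p = 4.79e-09 and 6.16e-09). Of the called genes, PIP1;4 had the smallest change (-0.85). The exceptions were PIP2;6 (5.05 ± 0.246 and 4.47 ± 0.582 CPM) and PIP2;8 (4.96 ± 0.865 and 5.70 ± 0.791 CPM), whose groups overlapped. PIP2;2 and PIP2;3 are near-identical, so their separate values are uncertain.

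**Figure D5:**
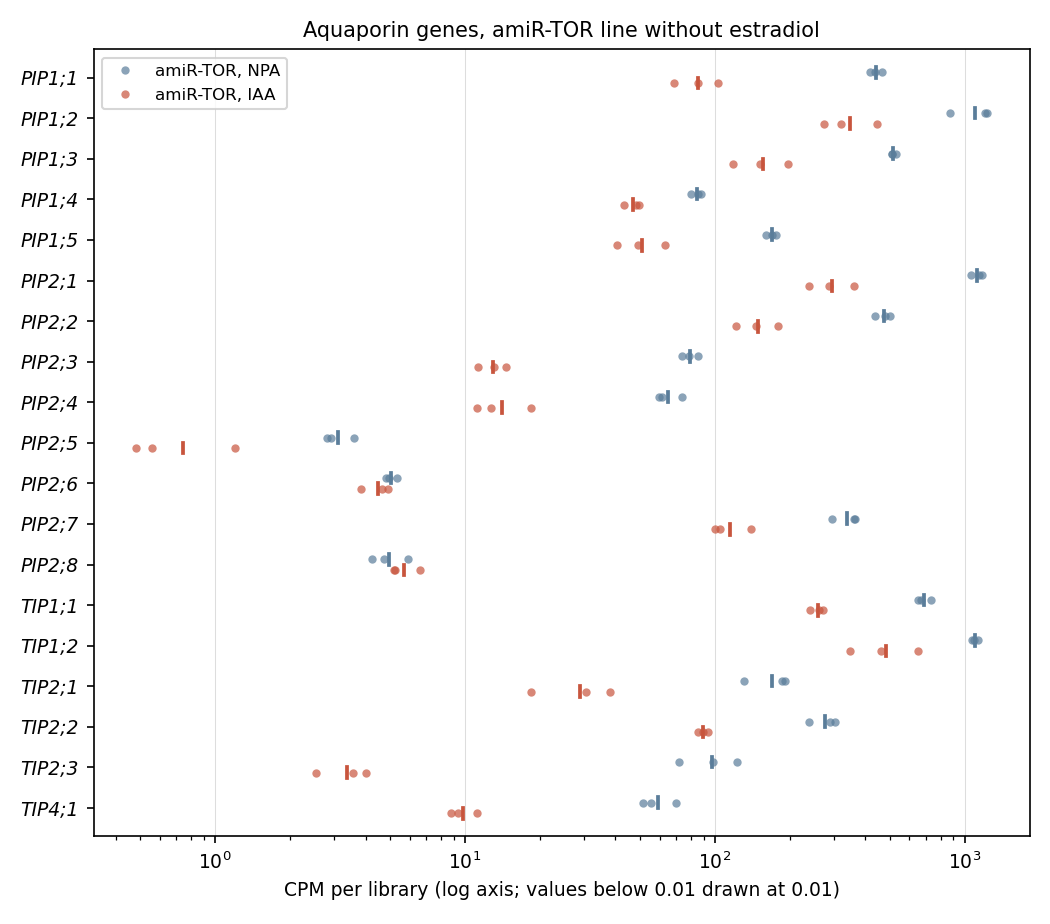
CPM of 19 aquaporin genes in the 3 NPA (blue) and 3 IAA (red) libraries of the uninduced amiR-TOR line on a log axis, with bars at the group means. TIP2;3 dropped from 97.8 to 3.36 CPM and PIP2;1 from 1122 to 295 CPM, and PIP2;6 and PIP2;8 overlapped between groups.

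Several tested nitrate genes rose, and the xylem loader fell. NRT1.5 (AT1G32450), which loads nitrate into the xylem, had 781, 680.5 and 996 CPM on NPA and 22.6, 15.8 and 18.4 CPM on IAA. NRT2.1, the main high-affinity uptake carrier, had 8.52, 6.58 and 23.7 CPM on NPA and 173, 377 and 250.2 CPM on IAA. Neither gene overlapped, with log2 fold changes of -5.42 for NRT1.5 and 4.38 ± 0.463 for NRT2.1 (edgeR, adjusted p = 9.04e-13 and 2.96e-07). NRT3.1, the partner protein of NRT2.1, rose by 1.52 ± 0.187 and NRT1.8, which unloads the xylem, by 3.02 ± 0.442. Of the 8 tested nitrate genes, 5 rose, 1 fell and 2 were not called, NRT1.1 and NIR1. The higher count was 4 in 4 of 6 fits with 1 library removed, where NIA2 lost its call (0.29 to 0.49). NRT1.5 fell further in Col-0 (-6.86), a difference of 1.44 ± 0.338 that stayed between 1.29 and 1.47 in 8 alternatives where its call was lost.

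The genes of largest change among those averaging at least 5 CPM included members already given (PGAZAT, PUCHI, LBD19, LBD33 and NRT1.5). AT2G03740, annotated as a late embryogenesis abundant protein, had no count in the NPA libraries and 17, 14.9 and 18.7 CPM on IAA, at least 359.9-fold higher against a floor of 3 counts over the group. GAD5, a glutamate decarboxylase gene, had 3 counts over the NPA libraries and averaged 21.1 ± 2.81 CPM on IAA, a ratio of 455 with a counting interval from 155 to 2212. MES17, for an esterase that can free IAA from its methyl ester, had 0.641, 0.640 and 1.34 CPM on NPA and 314, 304 and 325 CPM on IAA. GASA5, of a gibberellin-regulated family, went from 1.22 ± 0.769 to 367 ± 63.5 CPM, AT2G15590 from 0.168 ± 0.0881 to 48.2 ± 5.15 CPM and the cytochrome P450 gene CYP78A10 by 8.14 on the log2 scale. SKOR, a potassium channel that loads the xylem, stood at 17.7 to 21.7 CPM on NPA and at 0.242 to 0.761 CPM on IAA, a log2 fold change of -5.19 (edgeR, adjusted p = 3.92e-11). The other large falls were those of AT1G19900 (-5.96), AT5G03995 (-5.64), AT4G30450 (-5.48), AT4G30460 (-5.44), AT3G01260 (-4.99), AT1G05660 (-4.97), AT2G38600 (-4.87) and AT3G53980 (-4.83), of which AT4G30450 and AT4G30460 are neighbours that both encode glycine-rich proteins.

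By difference in mean CPM, which is not adjusted for gene length, the largest rises were those of GH3.3, GH3.2, HSC70-1, GH3.5 and AT5G60390. HSC70-1, for a constitutive chaperone, had 1161, 1142 and 1255 CPM on NPA and 3092, 3211 and 2794 CPM on IAA, with no overlap (1.35 ± 0.148). AT5G60390, for a translation elongation factor with near-identical copies and hence an uncertain count, rose by 0.97 ± 0.114. PYK10, a beta-glucosidase gene of root endoplasmic reticulum bodies, had 17515, 17538 and 18070.5 CPM on NPA and 9530.2, 9983 and 8786 CPM on IAA, a log2 fold change of -0.91 (edgeR, adjusted p = 5.50e-06). PBP1, for a lectin that binds the PYK10 enzyme, fell by 1.14. DR4, a gene repressed by drought, went from 3714 ± 322 to 436 ± 54.8 CPM, the protease gene AT4G11320 from 2855 ± 66.8 to 611 ± 97.8 CPM and GRP9 from 2543 ± 477 to 834 ± 223 CPM.

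One library of the IAA group differed from the other two in some stress and leaf genes. Genes of camalexin, an antimicrobial compound, summed to 1194 CPM in IAA replicate 2 and to 265 and 329 CPM in IAA replicates 1 and 3, against 1187 to 1469 CPM on NPA. CYP79B3, for an early step, fell by 2.05 ± 0.501, with 54.4, 162 and 57.4 CPM on IAA, and the other 4 genes of the list were not called. Of 7 leaf photosynthesis genes, 3 were called higher and 2 lower. The 3 called higher, LHCB1.1, LHCB1.2 and RBCS3B, overlapped between groups, with IAA replicate 2 at 0, 0.842 and 0.241 CPM. The list summed to 185 to 208 CPM on NPA and 95.6 to 131 CPM on IAA. The part of leaf RNA in other results was not tested. LHCB1.2 lost its call without IAA replicate 3 (0.61), IAA replicate 1 (1.31) or any 1 NPA library (1.09 to 1.44), and RBCS3B likewise (2.60, 3.21 and 2.94 to 3.52). Of 5 heat stress genes, HSFA2, HSP101 and HSP70 rose by 2.89, 1.12 and 1.05. HSFA2, a heat stress factor, had 1.86, 2.17 and 1.51 CPM on NPA and 15.5, 12 and 13.9 CPM on IAA, clearly apart. Of 3 genes that mark sugar starvation, ASN1 rose by 1.98 ± 0.482 and DIN10 by 0.95 ± 0.276.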

How the data were processed

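Root RNA was sequenced in 24 libraries, 3 in each of 8 groups. The deposited files give raw read counts per gene, and the submitters' processing notes name STAR 2.5.2b, the build TAIR10 and DESeq2. The annotation release is not given in the sources used here. Each file holds counts for both strands together and for each strand, and the counts of the strand with most reads were used. The 4 summary lines of unmapped, multimapping, featureless and ambiguous reads stayed out of library sizes. Reads that map to several places were not counted, so near-identical genes are uncertain.

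Counts of the 24 libraries were fitted together with edgeR 4.0.16 in R 4.3.3 (TMM scaling, quasi-likelihood test), after its filter on low counts left 21290 genes. P-values were adjusted by Benjamini-Hochberg over these genes, and genes under 0.05 were called. CPM values use TMM-scaled library sizes. SE is the size of the log2 fold change divided by the square root of F. On simulated data with genes changed by known amounts, the test recovered 79% of changes of 1 and 97% of changes of 2 (log2) in the IAA comparison, and 58% and 93% in the difference between lines. Only 100 genes of each size were changed there, in the amiR-TOR IAA group alone, and 20845 were left unchanged. In the data 52.8% of genes were called, so these rates do not carry over to the comparisons made here. Depth limits precision most in IAA replicate 2, and counting intervals (95%) and floors cover counting error only.

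Genes were named by rule: list members, the 10 largest rises and falls by fold and the 5 largest of each by CPM difference among called genes averaging at least 5 CPM and moving alike in all 3 same-numbered sets, and the 5 most positive and negative called differences between lines. The members and lists were chosen with earlier results of these data known. Alternatives were DESeq2 1.42.0, its size factors, no filter on low counts, counts without regard to strand, a fit of the compared groups, the replicate number as a block, and leaving out each library. Promoters were the 250 bases before the annotated start in TAIR10.1, a release of the build the notes name, and 32548 of 32833 loci matched its gene table. A few list members are counted in their lists but not reported here by name.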

Additional observations from a re-analysis of the deposited data

Results flagged for a closer look

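Each value here is a difference between lines that passed the test in edgeR, as the log2 fold change in amiR-TOR minus that in Col-0, and it drew attention because the same move to IAA gave unequal responses in the lines. In all, 634 genes passed. The most positive were AT5G46900 (3.43), AT5G46890 (2.62), AT4G30460 (2.53), XTH13 (2.47) and AT4G37220 (2.30). The most negative were CYP706A2 (-3.78), AT5G39670 (-3.04), AT4G37290 (-2.73), TCH3 (-2.68) and AT1G13480 (-2.43).

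Among auxin genes, the differences were -1.12 for IAA19, 2.45 for IAA32, 0.78 for GH3.17 and -0.71 for PIN7. IAA32 averaged 1.37 CPM or less in both amiR-TOR groups, and its call was lost in 14 alternatives, among them each one that left out an amiR-TOR library. Among lateral root and wall genes they were -1.19 for LBD18, -0.78 for CRF3, -0.72 for MYB124 and 1.56 for XTH23. Cell cycle regulators differed by -0.58 (CYCD3;2), -0.59 (CYCA3;2), -1.07 (CYCA1;1), -0.83 (CYCA2;4), -1.08 (CYCB1;2), -1.26 (CYCB1;3), -1.44 (CYCB1;4), -1.01 (CYCB2;2), -0.85 (CYCB2;3), -1.11 (CDKB1;2), -1.0 (CDKB2;1), -0.93 (CDKB2;2), -0.95 (KN) and -1.20 (MAP65-3). Replication genes differed by -0.91 (MCM3), -0.59 (MCM4), -1.11 (MCM6), -0.60 (MCM7), -1.03 (PCNA1), -0.63 (PCNA2), -0.70 (CDT1A), -1.25 (CDT1B), -0.73 (RNR1), -0.84 (TSO2) and -0.74 (ICU2).

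Ribosome biogenesis genes differed by -0.95 (FIB2), -0.79 (NOP56), -0.68 (NOP5-2) and -0.81 (CBF5). Hormone genes differed by 0.93 (ARR5), 1.16 (ARR6) and -1.18 (ACS6). In differentiated tissue the values were 0.60 for MYB92, 1.8 for EXPA7, 1.62 for EXPA18, 1.44 for NRT1.5 and -0.76 for XCP2. LHCB1.1 differed by 8.25 and LHCB1.2 by 3.74. IAA replicate 2 of amiR-TOR was at 0 and 0.842 CPM, so the amiR-TOR part of these differences rests on the other IAA libraries. The differences also hold the change in Col-0. Of the 7 leaf photosynthesis genes, 6 were called in Col-0 and 0 of them higher, with a median of -2.14 there and -0.54 in amiR-TOR. The call of LHCB1.1 was lost in 12 alternatives. HSFA2 differed by 1.19, a call lost in 13 alternatives. Of 59 genes called for the difference that were list members or among the widest differences, 42 lost the call in at least 1 alternative.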

How the results depend on the processing

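The count of genes called for IAA against NPA, 11239, lay between 9722 and 10643 with 1 library left out and between 10933 and 12145 under the other alternatives. The higher share of calls, 55.4%, was 49.4% to 49.8% with the compared groups fitted alone, with the block there, and without regard to strand. Of 303 named genes, 258 kept their side of the threshold and their direction under each alternative run. The rest lost or gained a call or changed sign near 0. Of 59 genes called for the difference between lines, 17 kept the call throughout. The 634 differences became 1259 with DESeq2 (496 more positive, 763 more negative) and 1016 with the replicate block in the compared groups (809 more negative), and the more positive count was 151 when the compared groups were fitted alone. Leaving out 1 library gave 153 to 1400 (58 to 639 more positive, 95 to 761 more negative). The cause was not tested. Genes not called changed sign with 1 library left out, ranging from -0.17 to 0.078 for SHR, -0.50 to 0.19 for IAA33, -0.068 to 0.028 for AFB3, -0.13 to 0.060 for PIN2, -0.024 to 0.017 for LST8-1, -0.069 to 0.055 for E2FB, -0.045 to 0.23 for MAP65-3 and -0.30 to 0.13 for EXPA7. MAP65-3 was also at -0.0001 when reads were counted without regard to strand. With the replicate number as a block, 11065 genes were called in the fit of all libraries and 11928 in that of the compared groups. Deviations of same-numbered amiR-TOR libraries correlated at 0.0858, 0.0859 and 0.046, and 6 of 6 libraries correlated best with their own number. The same deviations in Col-0, which enter the difference between lines, correlated at 0.257, 0.31 and 0.0376. The main fits left the numbers unpaired, and whether same-numbered libraries share a source was not tested. On simulated data with few changed genes, changes of 1 on the log2 scale were missed more often in the difference between lines than in the IAA comparison.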

Other observations

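Gene families outside the lists, grouped by the product name of the annotation and chosen after their values were seen, also moved to unequal extents. Of 46 tested small nucleolar RNA genes (snoRNA), which guide the modification of ribosomal RNA, 39 were called higher, and 36 (78.3%) reached a log2 fold change of at least 1, against 12.4% of all genes. Their median was 2.04, and since they are short and can lie within other genes, their counts are uncertain. Of 180 genes for pentatricopeptide repeat (PPR) proteins, which act on RNA in mitochondria and chloroplasts, 111 were higher and 4 lower, with a median of 0.74, where 29.3% of all tested genes were higher and 23.5% lower. Of 30 genes of the mitochondrial transcription termination factor family, 19 were higher, with a median of 0.59.

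Of 24 mannose-binding lectin genes, 14 were lower and 1 higher, and 12 (50%) reached a log2 fold change of at most -1, against 8.77% of all genes. HXXXD-type acyl-transferase genes, of the modification of secondary compounds, were lower in 20 of 42 and higher in 4, with a median of -0.64. SAUR-like genes, named as small auxin-up RNAs, were lower in 19 of 38 and higher in 12, with a median of -0.55. Their higher share was near the 29.3% of all genes, but large changes were more frequent both ways. Of the 38, 11 (28.9%) reached a log2 fold change of at least 1, against 12.4% of all genes. At -1 or less were 10 (26.3%), against 8.77% of all genes.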
